A study of Mus musculus with 4 samples.

Results

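The p63 family consists of the transcription factor genes Trp63 (p63), Trp73 (p73) and Trp53 (p53), and it was read here by every array probe whose file annotation gives 1 of these 3 names. These 3 genes are among 29874 distinct names on the array and take 8 of its 39429 gene probes: 4 of Trp63, 3 of Trp73 and 1 of Trp53. The RNA came from ureters of E15.5 embryos of NMRI mice. On each of 4 arrays with 2 colours, 1 RNA called cKO was set against 1 control RNA of the same sex. The cKO embryos were Pax2-cre/+ with both Trp63 alleles floxed at the ΔN form (dN-flox). The controls carried at least 1 such allele (the labels write Trp63(dN-flox/?), leaving the other allele open) and have no cre in their genotype. Female embryos gave replicates 1 and 2, and male embryos gave replicates 3 and 4. The red dye, AlexaFluor647, marked the cKO RNA of replicates 1 and 3, and the green dye, AlexaFluor555, that of replicates 2 and 4. Pax2-cre, a cre transgene under the control of Pax2, a gene of the nephric duct lineage, was present in all cKO RNAs and named for none of the controls, so an effect of the transgene and the loss of ΔNp63 cannot be told apart. The labels do not say whether the replicates are single embryos, pools or litters, so p-values measure the spread between these RNAs.

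The 3 proteins share a DNA-binding domain and bind related response elements. The p63 gene has a distal promoter that gives TA forms and an internal promoter that gives ΔN forms, which lack the N-terminal transactivation domain, and alternative splicing at the 3′ side gives the alpha, beta and gamma ends. ΔNp63 is the main form in basal cells of stratified epithelia and of the urothelium. p73 is known from multiciliated cells and neurons, and p53 is the broadly expressed regulator of the response to DNA damage.

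The 4 Trp63 probes lie on the forward strand of chromosome 16 of build mm9 and are named here by their array identifiers, in the order of the gene. A_55_P1952056 (chr16:25821344-25821403) and A_52_P338796 (chr16:25867718-25867777) are annotated in the files with cDNA clones and with no RefSeq transcript. A_55_P2161055 (chr16:25871159-25871218) is annotated with 3 of the 8 RefSeq mRNAs listed for the gene, and A_51_P216550 (chr16:25892012-25892071) with 4 others. These annotations share no transcript, but whether either probe also reads transcripts that its annotation leaves out was not analysed here. The gaps between neighbouring probes are 46314, 3381 and 20793 bases. The 60-base probe sequences are shown because the results differ from probe to probe. The first 30 bases are given for 3 of them and the whole of A_55_P2161055, in which capitals mark a run of 6 CAG repeats:
A_55_P1952056: acttaccatgtgtcctggctatagcttttc
A_52_P338796: cagtcccatataccatgcacttaactcttt
A_55_P2161055: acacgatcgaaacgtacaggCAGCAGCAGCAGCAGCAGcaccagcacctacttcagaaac
A_51_P216550: caaaaggtactttcttatagacatgatact
Exons, UTRs and the floxed interval of Trp63 were not analysed here, so it is not known here which probe lies in the deleted part or which reads only TA or only ΔN transcripts.

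Trp63 RNA was lower in cKO ureters by 3 of its 4 probes on every array, and by the remaining one its mean ratio was near 0. Of these 3, 2 passed the test across all probes (A_51_P216550, 2.59-fold lower, and A_55_P1952056, 2.39-fold lower), and A_52_P338796, 1.75-fold lower, fell just short of it. A_55_P2161055 had a log2 ratio of -0.02 ± 0.16 (SD, n = 4). In whole ureters, fewer cells that express a gene and less RNA per cell cannot be told apart.

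For A_51_P216550, the probe farthest downstream, the normalised log2 intensity was 11.98, 11.91, 12.17 and 12.20 in the control RNAs of replicates 1 to 4. In the cKO RNAs of the same replicates it was 10.59, 10.72, 10.86 and 10.59. All 4 cKO values lay below all 4 control values, with a gap of more than 1 log2 unit between the groups. Its log2 ratios (cKO over control) were -1.39, -1.18, -1.30 and -1.62, a mean of -1.37 ± 0.18 (SD, n = 4; limma adjusted p = 0.00316), with a 95% interval of the fitted ratio from -1.60 to -1.14. Adjusted p-values of probes are Benjamini-Hochberg values over 28610 tested probes.

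A_55_P1952056, the probe farthest upstream, gave control levels of 10.17, 10.26, 10.38 and 10.51 in replicates 1 to 4 (normalised log2 intensity). The cKO levels were 9.18, 9.04, 9.33 and 8.74. The groups did not overlap, and the cKO RNA of replicate 4 was the lowest of the 8. The log2 ratios were -0.99, -1.22, -1.05 and -1.77, a mean of -1.26 ± 0.36 (SD, n = 4; limma adjusted p = 0.00623; 95% interval -1.51 to -1.0). Without the filter on dim probes, the same ratio had adjusted p = 0.0704 (limma) and was not called. That setting adds untested probes both to the adjustment and to the fit. Its prior degrees of freedom were 2.171, against 4.252 in the reported fit. The unadjusted p was 0.000212 there and 1.63e-05 in the reported fit (limma).

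A_52_P338796 had mean signals of 87.9 to 293.1 units before background correction, against local backgrounds of 26.0 to 74.0. Its normalised log2 levels were 8.41, 7.74, 8.21 and 8.13 in the control RNAs. In the cKO RNAs they were 7.27, 7.39, 7.44 and 7.15. Again no cKO value reached the lowest control value, that of replicate 2. The log2 ratios were -1.14, -0.35, -0.76 and -0.98, a mean of -0.81 ± 0.34 (SD, n = 4; limma adjusted p = 0.0545; 95% interval -1.11 to -0.50), with replicate 2 the smallest in size. This probe passed the threshold in 12 of 16 other ways of processing, and with Agilent's own processed signals its mean ratio was -1.25, more than 1.5 times the size. Among these 12 are the fits that leave out 1 array, with fitted ratios of -0.97 to -0.65. Such a ratio is not the plain mean of the arrays kept. Under the dye term, the lone array of its dye orientation weighs as much as the other arrays together. The prior degrees of freedom of these fits were infinite or 8.753, against 4.252 in the reported fit. Their calls therefore cannot be set against the adjusted p of the reported fit.

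A_55_P2161055, the probe with the CAG run, had control levels of 10.80, 10.27, 10.71 and 10.75 and cKO levels of 10.65, 10.41, 10.79 and 10.58 (normalised log2 intensity). The 2 genotypes overlapped, and the control RNA of replicate 2 was the lowest of the 8. Its log2 ratios were -0.14, 0.14, 0.08 and -0.17, below 0 on 2 arrays and above 0 on 2 (limma adjusted p = 0.999988; 95% interval -0.24 to 0.19). The fitted ratio of -0.02, equal to the mean of the 4 arrays, turned sign with median centring in place of loess (0.03). It also turned without replicate 1 (0.03) or replicate 4 (0.05). The fall seen by A_51_P216550 is outside that interval. The probe was well above background in all 16 spots of both genotypes. On the array, 2 other gene probes hold a CAG run at least as long. Both were tested, neither was called, and their log2 ratios were 0.036 and 0.0375. Whether cross-hybridisation through the repeat moves with this result was not tested.

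**Figure D1:**
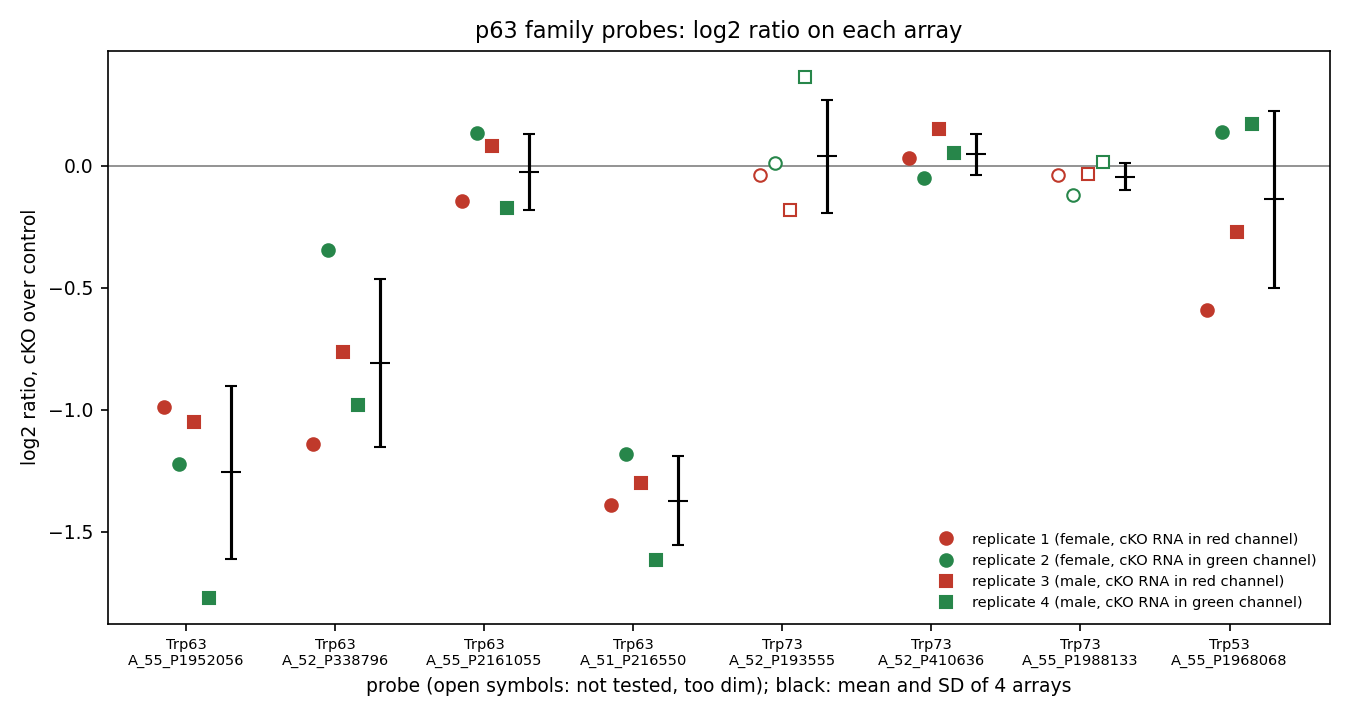
Log2 ratio of cKO over control (y axis) of the 8 probes of Trp63, Trp73 and Trp53 (x axis) on each of the 4 arrays. Circles are female and squares male replicates, red and green give the dye of the cKO RNA, open symbols mark probes too dim to be tested, and black lines show the mean and SD of 4 arrays. All arrays lie below 0 for A_55_P1952056, A_52_P338796 and A_51_P216550, and the arrays of A_55_P2161055 lie on both sides of 0.

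Across the array, 0.580% of the tested probes were called lower and 0.433% higher, 3.12% had cKO levels that all lay below the control levels, and 2.92% had them all above. A log2 ratio below 0 on all 4 arrays was found for 7.38% of probes and one above 0 on all 4 for 7.91%. Among the 6 tested probes of the family, 2 were called lower, none was called higher, and 3 had cKO levels wholly below control and ratios below 0 on every array. No member lay wholly above. Ranked from the lowest log2 ratio upwards among the 28610 tested probes, A_51_P216550 was number 29, A_55_P1952056 number 36, A_52_P338796 number 96 and A_55_P2161055 number 10687.

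**Figure D2:**
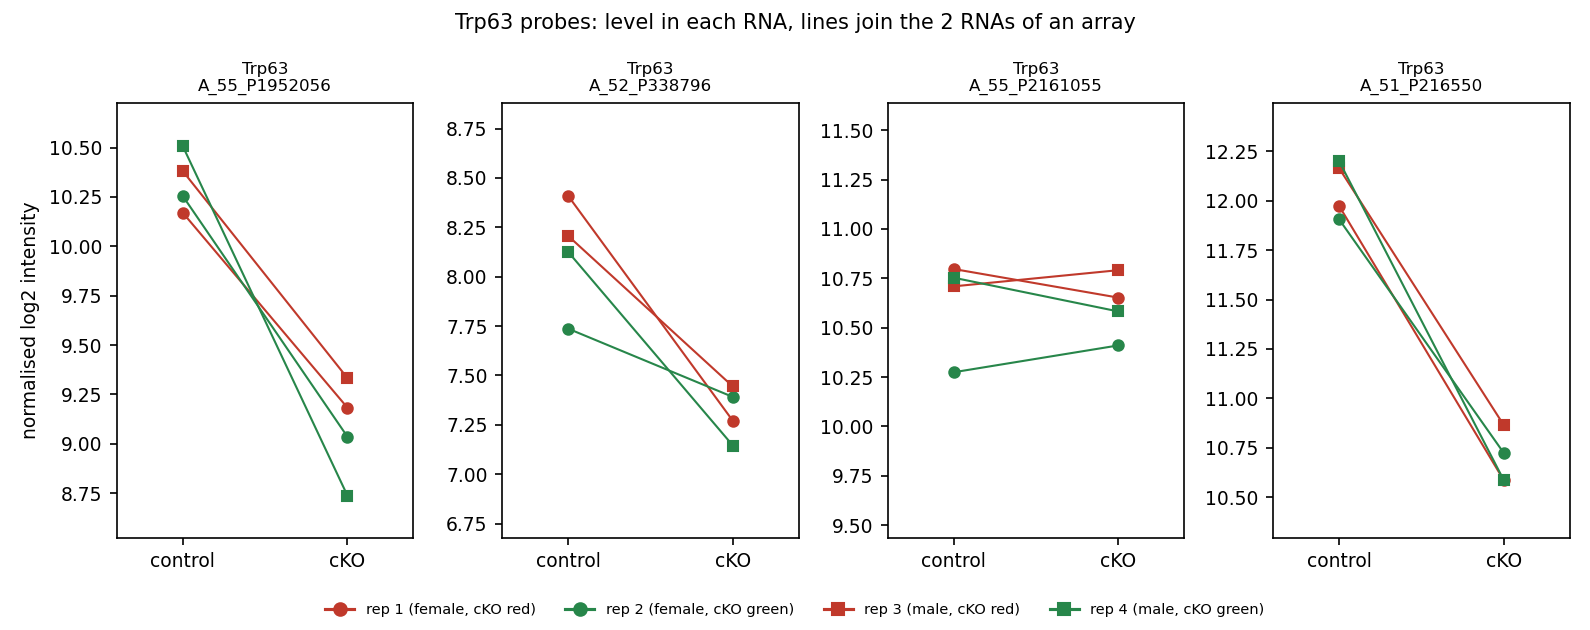
Normalised log2 intensity (y axis) of the 4 Trp63 probes in the control and cKO RNA of each array (x axis), with lines joining the 2 RNAs of an array. Each panel spans the same number of log2 units, circles are female and squares male, and colour gives the dye of the cKO RNA. The lines fall in all replicates of 3 probes, and for A_55_P2161055 they run in both directions between 10.27 and 10.80.

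The differences between probes were compared within arrays, since each array measured all probes in the same pair of RNAs. The ratio of A_55_P2161055 exceeded that of A_51_P216550 by 1.25, 1.32, 1.38 and 1.45 in replicates 1 to 4, a mean difference of 1.35 ± 0.09 log2 units (SD, n = 4). Against A_55_P2161055, A_55_P1952056 was lower by 0.84 to 1.60, with a mean difference of -1.23 ± 0.32. A_52_P338796 was also lower than A_55_P2161055 on every array, at -0.78 ± 0.22. It was in turn less reduced than A_51_P216550 on every array, by 0.57 ± 0.24, a difference that came to 0.16 with Agilent's processed signals. These 4 differences had the same sign on all 4 arrays, and each reached the smallest p that 4 arrays allow in an exact two-sided sign-flip permutation test (p = 0.1875 after Benjamini-Hochberg adjustment over the 6 pairs compared). With 4 arrays this test cannot reach the 0.05 threshold for a single pair of probes. A_55_P1952056 and A_52_P338796 differed by -0.45 ± 0.48, with replicate 1 opposite in sign (exact permutation p = 0.25). The outermost pair, A_55_P1952056 and A_51_P216550, differed by 0.12 ± 0.26, with both signs present (exact permutation p = 0.5).

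Over the 8 RNAs, the levels of A_51_P216550 correlated with those of A_55_P1952056 at a Pearson r of 0.981 and with those of A_52_P338796 at 0.927. A_55_P2161055 correlated with the other 3 at 0.158 to 0.383. These values describe 8 RNAs that share 4 arrays and fall into 2 genotypes. Within an array, the SD of the log2 ratios of a probe's 4 spots, a technical spread, was 0.0186 to 0.0428 for A_51_P216550, 0.0152 to 0.0487 for A_55_P1952056, 0.0266 to 0.0502 for A_55_P2161055 and 0.0557 to 0.169 for A_52_P338796.

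Neither sex nor dye gave a call for any Trp63 probe. The mean log2 ratio of A_51_P216550 was -1.29 in the female and -1.46 in the male replicates, and that of A_55_P1952056 was -1.10 and -1.41. For all 6 tested probes of the family the cKO-by-sex term had limma adjusted p = 0.999937, on 2 arrays of each sex, where 0.0664% of all tested probes were called. By dye, A_55_P1952056 had a mean of -1.02 where the cKO RNA was red and -1.50 where it was green. For A_51_P216550 these means were -1.35 and -1.40.

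**Figure D3:**
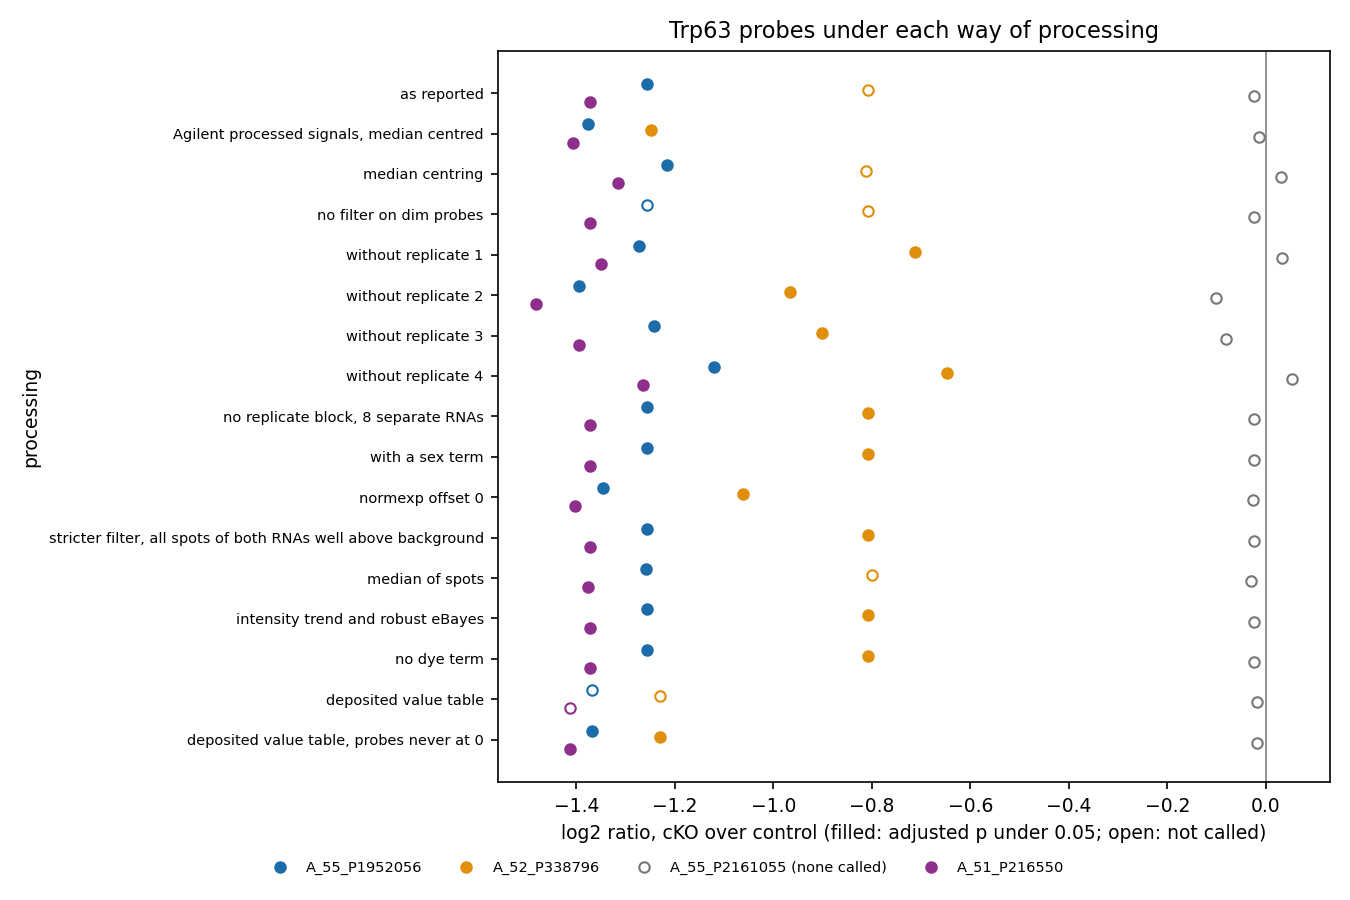
Fitted log2 ratio of cKO over control (x axis) of the 4 Trp63 probes under each way of processing (y axis). Filled points have a limma adjusted p under 0.05 and open points do not. A_51_P216550 and A_55_P1952056 stayed between -1.48 and -1.12 and A_52_P338796 between -1.25 and -0.65, while A_55_P2161055 stayed between -0.10 and 0.05.

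The log2 ratios deposited by the authors, with the sign already turned to cKO over control, gave means of -1.41 for A_51_P216550, -1.37 for A_55_P1952056, -1.23 for A_52_P338796 and -0.02 for A_55_P2161055. Fitted over the tested probes, this table left none of them called (adjusted p of 0.220, 0.303 and 0.450 for the first 3), and it called 0 probes lower and 1 higher in all (limma; at an unadjusted p under 0.05 it had 1190 and 1081). Of its values, 32.2% to 32.6% per array are exactly 0. Restricted to the 26058 tested probes with a value other than 0 on all 4 arrays, it gave adjusted p-values of 0.00123, 0.00271 and 0.0154 for the same 3 probes (limma).

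Trp73 was read by 3 probes on the reverse strand of chromosome 4, each annotated with all 3 RefSeq mRNAs of the gene. Only 1 of them was bright enough to be tested. They are shown because A_52_P410636 (chr4:153433043-153433102) and A_55_P1988133 (chr4:153433098-153433157) share 5 bases, given in capitals at the start of one and the end of the other, and yet only the former was well above background. A_52_P193555 (chr4:153430443-153430502) lies 2540 bases away. The lines give the first 30, the last 30 and the first 30 bases:
A_52_P410636: TGAGGaacgtaccttcttctcctgtccttc
A_55_P1988133: ggagttcacagagacagagagccacTGAGG
A_52_P193555: caagcagtattgatggatacagtctagtga

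By A_52_P410636, Trp73 was at 8.31, 8.34, 8.43 and 8.54 in the control RNAs and at 8.35, 8.29, 8.58 and 8.59 in the cKO RNAs (normalised log2 intensity), with all 16 spots of each genotype well above background. The genotypes overlapped, and within each array the 2 RNAs lay close together. The log2 ratios were 0.03, -0.05, 0.15 and 0.05, a mean of 0.05 ± 0.08 (SD, n = 4; limma adjusted p = 0.999988), with a 95% interval from -0.14 to 0.23. A change of the size seen for Trp63 by A_51_P216550 lies outside that interval.

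The other Trp73 probes give no test. A_52_P193555 was well above background in 7 of 16 spots of either genotype. Its log2 ratios were -0.04, 0.01, -0.18 and 0.37. A_55_P1988133 was not well above background in any of 16 spots of either genotype, and its normalised levels of 6.21 to 6.33 in all 8 RNAs have no order.

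Trp53 was read by 1 probe, A_55_P1968068 on the forward strand of chromosome 11 (chr11:69404204-69404263), annotated with both RefSeq mRNAs of the gene. The whole probe is given because the result for the gene rests on it alone:
A_55_P1968068: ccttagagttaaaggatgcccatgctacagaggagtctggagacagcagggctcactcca

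Trp53 was at 12.37, 11.97, 11.98 and 11.68 in the control RNAs and at 11.78, 12.10, 11.70 and 11.86 in the cKO RNAs (normalised log2 intensity). The ranges overlapped, and the control RNA of replicate 1 was the highest of the 8. The log2 ratios were -0.59, 0.14, -0.27 and 0.17, a mean of -0.14 ± 0.36 (SD, n = 4; limma adjusted p = 0.941; 95% interval -0.34 to 0.07). The fitted ratio was -0.06 without replicate 1, -0.22 without replicate 3 and -0.08 with median centring, and it was not called in any of these. With 1 array left out, the fitted ratio is not the plain mean of the arrays kept. Of the ratios kept without replicate 1, those of replicates 2 and 4 were above 0. The sign of the ratios followed the dye: the mean was -0.43 where the cKO RNA was red and 0.16 where it was green. The fitted dye effect of -0.29 had an unadjusted p = 0.0127 and an adjusted p = 0.999942, and 0 of 28610 probes were called for a dye effect (limma; 520 at an unadjusted p under 0.05).

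**Figure D4:**
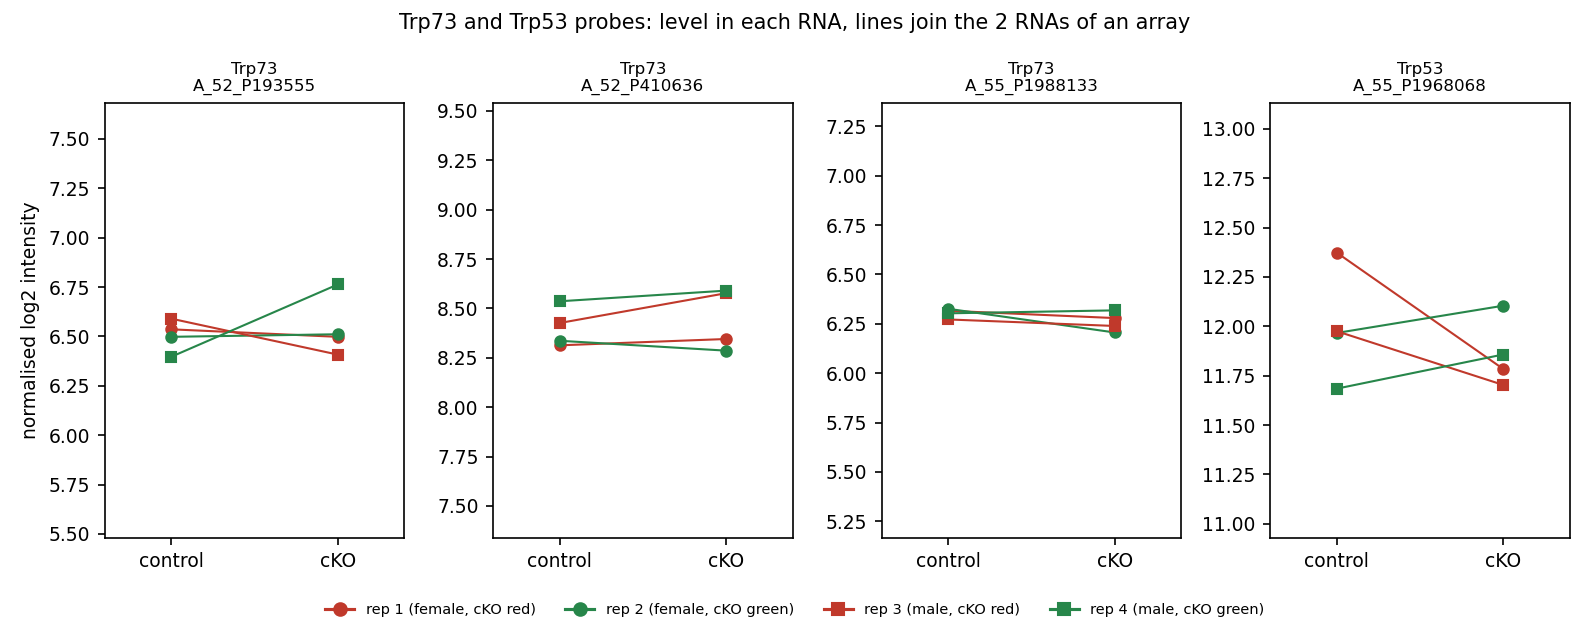
Normalised log2 intensity (y axis) of the 3 Trp73 probes and the Trp53 probe in the control and cKO RNA of each array (x axis), with lines joining the 2 RNAs of an array; panels span the same number of log2 units. Circles are female and squares male, and colour gives the dye of the cKO RNA. The lines of A_52_P410636 are near flat, A_52_P193555 and A_55_P1988133 lie near background, and the Trp53 lines fall where the cKO RNA was red and rise where it was green.

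Most of the genes that act on p63 or with it did not pass the test, though the share called lower was above that of all genes. Of 38 such genes, 5 were lower in cKO ureters, none was higher, and the median log2 ratio was -0.01 (all genes: -0.00025). Of all 21434 genes tested, 0.700% were called lower and 0.499% higher. This list was chosen with earlier results of these data known. All of the 5 but Ppp1r13l are also on the list of p63 targets below. From here on, each gene is given by its probe with the highest mean intensity and p-values are adjusted over genes. Zfp750, a zinc-finger factor of epidermal differentiation, had log2 ratios of -2.14, -1.67, -1.81 and -1.82, a mean of -1.86 ± 0.20 (SD, n = 4; limma adjusted p = 0.00135). Tfap2c, which encodes the transcription factor AP-2 gamma, fell by 1.11 ± 0.21 on the log2 scale, to a similar extent on all arrays (-0.82 to -1.30). Ripk4, a kinase of epidermal differentiation, was at -0.82 ± 0.18, and Grhl3, a grainyhead-like factor of barrier formation, at -0.68 ± 0.22 (adjusted p = 0.0469). Ppp1r13l, which encodes the p53-family binding protein iASPP, was at -0.53 ± 0.08 (adjusted p = 0.0360). Without the filter on dim probes the calls of Ripk4, Grhl3 and Ppp1r13l were lost, and that of Ppp1r13l also with 4 other settings, among them without replicate 1 or replicate 3. Among those that did not pass, Mdm2, the ubiquitin ligase that acts on p53, was at 0.0001 ± 0.19.

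Of 45 genes described as p63 targets in epithelia, 44 could be tested. Of these, 21 fell and none rose, with a median log2 ratio of -0.53, against 0.700% of all genes called lower. The list was chosen with earlier results of these data known, so its share of called genes is a description and no independent support. The medians in replicates 1 to 4 were -0.61, -0.38, -0.63 and -0.61, and 29 of the 44 genes were below 0 on all 4 arrays. Pkp1, a desmosomal plaque protein, was at -2.11 ± 0.29 (SD, n = 4; limma adjusted p = 0.000872). Trim29 was at -1.88 ± 0.12, the surface protein gene Lypd3 at -1.86 ± 0.19, the ligand gene Wnt10a at -1.80 ± 0.09, and Sfn, which encodes 14-3-3 sigma, at -1.30 ± 0.20. Zfp750, Tfap2c, Ripk4 and Grhl3, described above, are on both lists, which share 7 genes, so their calls are counted in both. The called genes ranged from Perp, a desmosome-associated p53 and p63 target, at -2.12 ± 0.36, to Nectin4, an adhesion molecule, at -0.54 ± 0.16. Not all members moved: Col17a1, a hemidesmosomal collagen, was at -0.11 ± 0.17, the laminin chain gene Lamb3 at -0.0002 ± 0.14 and the receptor gene Fgfr2 at 0.01 ± 0.17. Perp, Nectin4, Col17a1, Lamb3 and Fgfr2 were chosen after their values were seen.

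**Figure D5:**
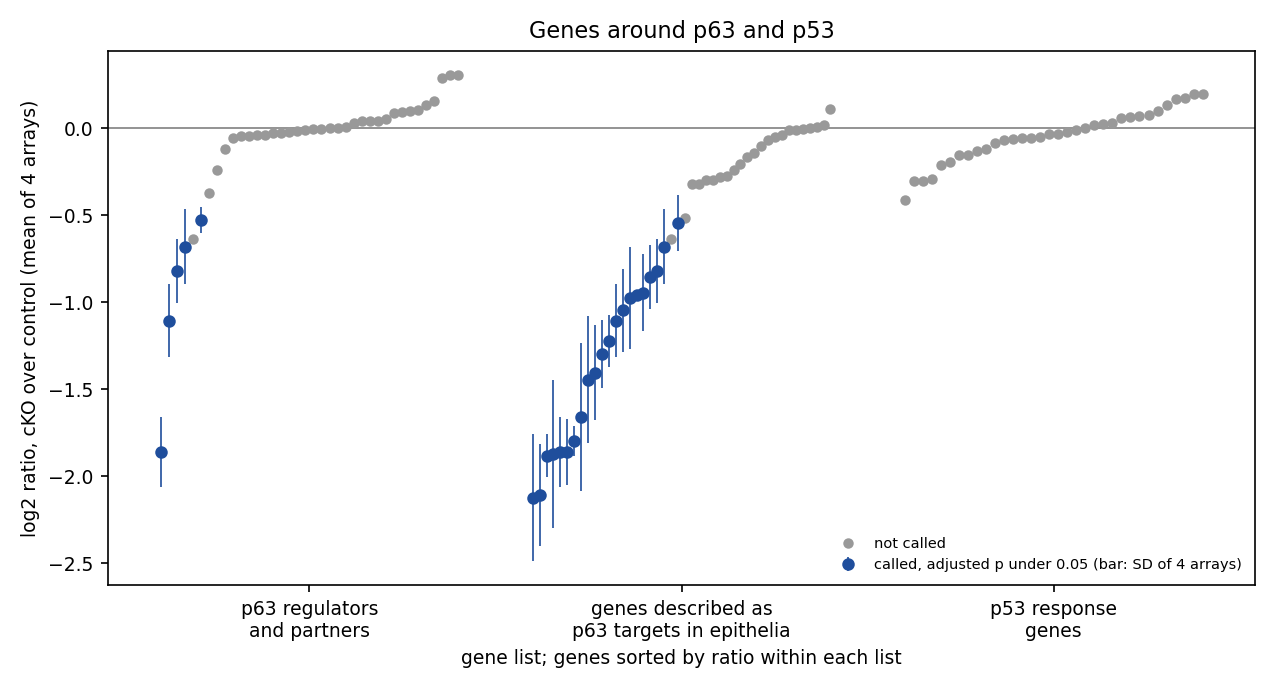
Mean log2 ratio of cKO over control (y axis) of each tested gene in 3 lists (x axis), sorted within each list. Blue points are genes with a limma adjusted p under 0.05, with the SD of 4 arrays as bars, and grey points are genes not called. There are 5 called genes of 38 in the first list, 21 of 44 in the second and 0 of 34 in the third, and every called gene lies below 0.

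Of 35 p53 response genes, 34 could be tested and 0 passed (limma; 4 at an unadjusted p under 0.05, all of them lower). Over all 28610 probes, 1150 were lower and 1009 higher at that unadjusted p, and 0.700% of genes were called lower. The median log2 ratio of the list was -0.03. Of its 34 tested genes, 6 were below and 1 above 0 on all 4 arrays. That is a larger share below and a smaller share above than among all tested probes (7.38% and 7.91%, counted by probe, not by gene). Whether the list leans lower was not tested. Among those with the smallest p were Dglucy at -0.30 ± 0.16, Phlda3 at -0.30 ± 0.16, Ddit4 at -0.30 ± 0.16, Cdkn1a, the cell cycle inhibitor p21, at -0.21 ± 0.21, and Pidd1 at -0.15 ± 0.10. Leaving out replicate 4 gave 5 lower and 1 higher call on this list.

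Genes near Trp63 were found by the position of their probes. Of 6 named features within 500000 bases of a Trp63 probe, 4 were tested and none was called. Tprg, a p63-regulated gene by name, lies 398979 bases from the nearest Trp63 probe. Its log2 ratios were -0.02, -0.48, -0.60 and -0.10, a mean of -0.30 ± 0.28 (SD, n = 4; limma adjusted p = 0.619), and the fitted ratio was -0.15 without replicate 3. On the other side, 9230106L01Rik, 10517 bases away, was at 0.11 ± 0.04, and P3h2, a collagen prolyl hydroxylase, at 0.29 ± 0.07, above 0 on all 4 arrays without passing (adjusted p = 0.241); without replicate 4 it passed at 0.32 (adjusted p = 0.0379). Cldn1, a tight junction claudin, was at -0.01 ± 0.22. Gm4524 and BG070134 were not well above background on any array.

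The genes whose levels over the 8 RNAs were most like those of A_51_P216550 were all called lower in cKO ureters. Likeness to a probe that differs between the genotypes favours such genes. By Pearson r they were Serpinb5 (0.995), Anxa8 (0.993), Srd5a1 (0.991), Tmprss13, Nectin1, Jag2 and Aldh1a7 (0.990 each) and Pdgfa (0.989). Their mean log2 ratios ran from -0.96 ± 0.03 for Nectin1, an adhesion molecule, to -2.35 ± 0.32 for Serpinb5, the serpin maspin. Within the 4 control RNAs alone r ran from 0.548 (Nectin1) to 0.975 (Serpinb5), and within the 4 cKO RNAs from 0.279 (Jag2, a Notch ligand) to 0.968 (Aldh1a7). With Spearman's rho in place of r, 3 of these 8 genes were again among the 8 most like Trp63, and with A_55_P1952056 as the reference 0 of the 8 were.

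Most markers of basal epithelium were lower in cKO ureters, as Trp63 was by 3 of its 4 probes. Across all genes tested, 0.700% were called lower and 0.499% higher. Of 9 basal epithelial markers, 8 were lower and none higher, with a median log2 ratio of -1.19 (-1.27, -0.92, -1.36 and -1.41 in replicates 1 to 4), among them Krt5 at -1.87 ± 0.42 and Krt14 at -0.98 ± 0.29. The log2 of their summed level was 14.3 to 14.7 in the control RNAs and 13.0 to 13.2 in the cKO RNAs. The basal marker not called was Col17a1, at -0.11 ± 0.17. Of these 9 markers, 5 are also on the p63 target list, which was chosen with earlier results of these data known. Of 12 general epithelial markers 0 were called (limma; at an unadjusted p under 0.05, 4 were lower and 1 higher; median -0.16; log2 of the sum 17.3 to 17.5 in control and 17.0 to 17.2 in cKO), with Cdh1, E-cadherin, at -0.40 ± 0.26 and Epcam at -0.10 ± 0.08. Of 13 urothelial and luminal markers, 1 fell (Upk2, -0.54 ± 0.11) and 2 rose (Krt18, 0.50 ± 0.14, and Krt20, 1.92 ± 0.19), and all 13 were detected. At an unadjusted p under 0.05 (limma), 2 were lower and 5 higher. The log2 of their summed level was 19.455 to 19.612 in control and 19.636 to 19.750 in cKO, without overlap. Of 12 markers of ureteric mesenchyme and smooth muscle 0 were called (limma; 1 higher at an unadjusted p under 0.05), and their summed levels overlapped between genotypes. Of 10 nephron and kidney markers, 1 rose (Cubn, 2.22 ± 0.28), and Nphs1, Umod and Slc12a1 were not detected. Of the 7 detected, 3 were higher and 0 lower at an unadjusted p under 0.05 (limma), with a median of -0.134. Of 8 skeletal muscle markers 2 were lower (Myl1, -0.78 ± 0.12, and Ckm, -0.71 ± 0.26), with a median of -0.365. At an unadjusted p under 0.05 (limma), 4 of these 8 were lower and 0 higher. Neuron, leukocyte, endothelial and red cell markers had no call (1 neuron and 3 leukocyte markers lower at an unadjusted p under 0.05). The log2 of the summed leukocyte level was 14.193 to 14.506 in control and 14.035 to 14.171 in cKO, without overlap. The part of basal cell number in the Trp63 ratios was not tested.

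The median spot signal ranged over the arrays from 382 to 416 (green) and from 519 to 617 (red), and 71.8% to 77.0% of gene spots were well above background. The log2 ratios of 2 arrays correlated across the tested probes with a Pearson r between -0.097 (replicates 2 and 4, both with cKO in green) and 0.625 (replicates 2 and 3), and probes are not independent replicates. The number of arrays limits the precision of every ratio given.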

How the data were processed

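Spot intensity in both channels was read from the deposited scanner files, which also carry other flags such as nonuniform spots. The software, per the file headers, was Agilent Feature Extraction 10.7.3.1, and probe positions are on mm9. The series' deposited table holds log2 values, namely ratios. Its slope against processed red over green signals was 1.0026, -1.001, 1.0004 and -1 in replicates 1 to 4, so it gives cKO over control. Each of its columns has a median of 0, and the sources used here do not say how its zeros were set. Each labelling used 200 ng of total RNA and 1 round of T7 amplification, per the labels.

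Mean signals were corrected for background by normexp (offset 50) and normalised by loess, giving control spots weight 0 and dropping nonuniform spots (17 to 33 per array; 0 were saturated). Each probe has the mean of its 4 spots. Levels are log2 intensities per channel after loess and Aquantile normalisation. A probe was tested where, in 1 genotype, a share of 0.5 or more of its spots exceeded background by the scanner's flag on each of the 4 arrays, which kept 28610 of 39429 probes. Ratios were modelled in R 4.3.3 by limma 3.58.1 (1 cKO coefficient, 1 dye intercept; prior degrees of freedom 4.252), two-sided, with Benjamini-Hochberg adjustment and a threshold of 0.05. The array is the pair. The arrays share 1 slide and 1 scan date, so no batch could be tested. Of the probes, 30385 were named by a symbol of the reference gene table (GRCm38.p6, names only), 1492 by a synonym and 94 by an accession, and 7458 kept the file's name.

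Named are all probes of the family, called regulators, the 6 members of the other lists with the smallest p, genes within 500000 bases and the 8 genes most like A_51_P216550, with further examples chosen after seeing values. Results of some genes are left out of the text. Members and lists were chosen with earlier results of these data known. The position of the probes in the proteins, planned as a description, was not analysed here. The sequences are those of the scanner files. On simulated ratios of 28610 probes the fit recovered 18.2% of 1.5-fold, 59.4% of 2-fold and 88.8% of 4-fold changes, with 1.78% of calls false. The simulated noise was normal and independent between probes, with no variation shared across an array. These shares therefore need not hold for the real arrays. Alternatives tried were other background, normalisation, filter, spot and variance settings, leaving out each array, no pairing, a sex term, no dye term and the deposited table.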

Additional observations from a re-analysis of the deposited data

Results flagged for a closer look

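In 1 of 52 groups of 4 values checked for a sample far from the others, the gap reached 0.832 of the group's range: the control RNA of replicate 2 was at 10.27 for the Trp63 probe A_55_P2161055, against 10.71 to 10.80 in the other 3 control RNAs (normalised log2 intensity). Chance alone flags about 5% of such groups. The cKO RNA of the same array was also the lowest of its group, at 10.41. What sets replicate 2 apart was not tested.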

How the results depend on the processing

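The array is the pair of 1 cKO and 1 control RNA. With no replicate block (8 separate RNAs), A_52_P338796 passed the test at -0.81 (limma adjusted p = 0.0217), 196 probes were called higher against 124, and no other call of a member probe changed. A_52_P338796 also passed at -0.81 with a sex term, the stricter filter, the intensity trend or no dye term, at -1.25 with Agilent's processed signals, at -1.06 with an offset of 0, at -1.23 with the deposited table where no value was 0 (chosen after seeing the data) and at -0.97 to -0.65 with 1 array left out. It missed the threshold with median centring, no filter, the median of spots and the whole deposited table. A_51_P216550 (-1.41) and A_55_P1952056 (-1.37) lost their calls with the whole deposited table, in whose fit the many zeros give zero variances (prior degrees of freedom 0.832). Without the filter A_55_P1952056 (-1.26) lost its call, and 50 probes were called lower against 166 and 32 higher, with 2 regulators and 13 targets lower. A_55_P2161055, never called, turned sign with median centring (0.0296) and was between -0.101 and 0.0527 with 1 array left out. Cldn1, never called, turned sign with median centring (0.0314) and without replicate 3 or 4, over a range of -0.0831 to 0.0593 with 1 array left out. A sex term gave 340 probes lower and 262 higher, and no dye term 304 and 219. With 1 array left out, 176 to 963 probes were lower and 148 to 1010 higher. The extremes were without replicate 3 and without replicate 4, and without replicate 2 the counts were 559 and 478. In these fits 2 arrays alone give the residual spread, since the dye term fits the lone array of its orientation exactly. The prior degrees of freedom were infinite without replicate 1 or 3 and 8.753 without replicate 2 or 4. They were infinite with a sex term too, against 4.252 in the reported fit. Without replicate 4, 5 p53 response genes were lower and 1 higher, and 2 regulators higher; with the other arrays left out these counts were 0. The difference between A_52_P338796 and A_55_P2161055 was -1.23 with processed signals, and that between A_52_P338796 and A_51_P216550 was 0.16. The probe filter and the number of arrays limit what can be called: 2 of 3 Trp73 probes were too dim to test.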
